A study of Mus musculus with 12 samples.

Results

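Granulocyte-macrophage progenitors (GMP), bone marrow cells that give rise to neutrophils, monocytes and other myeloid cells, were sequenced after forced expression of the transcription factor GATA2, with and without Xbp1. The members are the 6 libraries labelled GATA2-GMP, 6 of the 12 in the series, chosen by that label: 3 from wild-type cells (WT 1 to WT 3) and 3 from Xbp1-deficient cells (KO 1 to KO 3). The remaining 6 libraries come from GMP of the same genotypes that were sorted without transduction, and serve here for comparison, mainly to test where the effect of genotype differed. All the mice were of the C57BL/6 strain. The GATA2-GMP of both genotypes were purified by flow cytometry, transduced, sorted once more and kept in culture for 48 hours, so that the WT controls carry GATA2 too. Their RNA was amplified with the SMARTer Ultra Low Input kit ahead of TruSeq library construction. Which Xbp1 allele was used is not in the labels, nor are the GATA2 vector, its species or the number of animals behind a library, and pooling of animals is not described. The p-values below therefore measure the spread between these libraries, which may be technical in part.

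The factor XBP1 belongs to the unfolded protein response, the program that cells start when unfolded proteins collect in the endoplasmic reticulum (ER). The ER sensor IRE1 cuts an intron out of the Xbp1 mRNA, and the protein made from the cut mRNA switches on genes that fold, glycosylate and transport secretory proteins. IRE1 can also cleave other mRNAs at the ER membrane, a process known as regulated IRE1-dependent decay, while the sensor PERK acts through the factors ATF4 and CHOP. Eosinophils are granulocytes filled with a few cationic proteins, among them major basic protein (Prg2) and eosinophil peroxidase (Epx), and forced GATA2 can turn GMP toward this lineage. Developing eosinophils make much of this protein in the ER.

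The libraries held 17829546 to 22564554 counts over 23366 gene symbols. The WT libraries had 14561 to 15091 genes with at least 1 count and the KO libraries 15473 to 16458. Prg2 was the most abundant gene in every one of the 6, with 8.72% to 12.2% of the counts in WT and 4.10% to 5.12% in KO. The labelled cells thus carried the defining eosinophil granule transcripts at high level in both genotypes. Levels below are counts per 1000000 counts (CPM) with TMM-scaled library sizes, a scaling that keeps a few abundant genes from setting the totals. A fold change is given as log2 KO minus WT with its standard error (SE), and a gene is said to have risen or fallen where its Benjamini-Hochberg adjusted p was under 0.05 in edgeR's quasi-likelihood test over 11702 genes.

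The libraries did not separate by genotype alone. The first principal component, 44.4% of the variance of log2 CPM, ran from WT 1 at -69.3 to KO 1 at 36.3, with all 3 KO libraries above all 3 WT libraries. On the second, 29.7% of the variance, WT 3 (48.1) and KO 3 (-54.2) lay at opposite ends. WT 1, WT 2 and KO 3 leaned to short transcripts, with log2 CPM changing by -0.082, -0.115 and -0.14 per doubling of exon length, and WT 3, KO 1 and KO 2 leaned to long ones, by 0.165, 0.080 and 0.092. Each genotype thus had libraries on both sides, and the median log2 fold change was -0.065 in the bin of the shortest of 5 equal bins of genes and 0.010 in that of the longest. What set these libraries apart was not tested. Values within each side are given for the main groups, and the calls are also given with a term for the side in the fit, an alternative chosen after seeing the data.

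**Figure D1:**
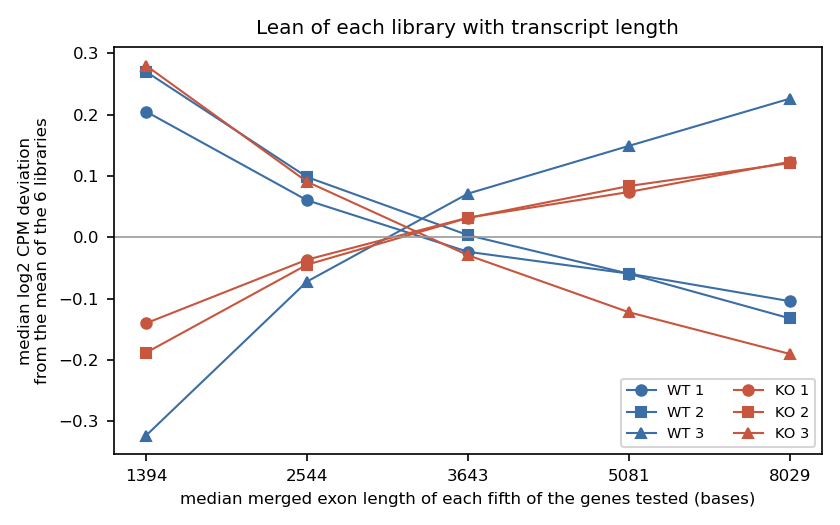
Median deviation of log2 CPM from the mean of the 6 GATA2-GMP libraries (y axis) over 5 equal bins of the tested genes ordered by merged exon length (x axis, median length in bases of each bin), 1 line per library, blue for WT and red for KO. WT 3, KO 1 and KO 2 rise with length, from -0.323, -0.14 and -0.188 in the bin of shortest genes, and WT 1, WT 2 and KO 3 fall, so that each genotype has lines of both kinds.

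Xbp1 itself was lower in every KO library, with transcript remaining. Its level was 293, 208 and 151 CPM in WT 1 to WT 3 and 76.9, 93.7 and 98.7 CPM in KO 1 to KO 3. The groups did not overlap, and the means were 217 ± 71.5 CPM in WT and 89.8 ± 11.4 CPM in KO (SD, n = 3 each). The log2 fold change of -1.28 (SE 0.27) missed the threshold, with an edgeR adjusted p of 0.0959, and leaving out single libraries gave adjusted p of 0.0131 to 0.446. DESeq2 gave an adjusted p of 0.00179. Xbp1 lies at chr11:5420662-5425896 on the plus strand (mm9, GENCODE vM1). Counts over whole genes do not show which exons the remaining reads cover, so that the level of intact mRNA in the KO cells is not known from these values.

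Of the 11702 genes tested, 41 passed (0.35%): 31 fell in the KO cells (0.265%) and 10 rose (0.0855%). In each of the 41 no KO library overlapped any WT library, and each differed by more than 2-fold. Genes without overlap were common at 3 libraries against 3: over all genes, every KO library was below every WT library in 12.2% and above in 10.4%. The falls reached -6.51 (median -2.07) and the rises, leaving Sva for a lower bound, were up to 4.13 on the log2 scale. Within the libraries leaning to short transcripts (WT 1, WT 2 and KO 3) the 31 falls had a median difference of -2.15. Within those leaning to long ones (WT 3, KO 1 and KO 2) it was -1.77. As the groups did not overlap in any of the 31, the direction on each side was fixed in advance, so these values are no test of the length lean.

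How many genes passed depended heavily on single libraries and on the model. Without WT 3, 526 genes passed (4.38%), 285 higher (2.37%) and 241 lower (2.01%), and all 41 were among them. Without WT 1 only 8 passed, without WT 2 28, without KO 2 20, and without KO 1 or KO 3 edgeR called 0, with 1002 and 1445 genes at an unadjusted p under 0.05. The full set had 768 genes higher (6.56%) and 974 lower (8.32%) at that unadjusted level. DESeq2 called 568 (4.85%), 261 higher (2.23%) and 307 lower (2.62%), and a term for the side of the length split in edgeR gave 1200 (10.3%), 510 higher (4.36%) and 690 lower (5.9%), both with all 41 among them. Scaling by library size alone moved all fold changes up by a median of 0.18 on the log2 scale and called 17 higher and 20 lower, so that the lower share of the calls went from 75.6% to 54.1%. Every fold change below is relative to TMM scaling.

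**Figure D2:**
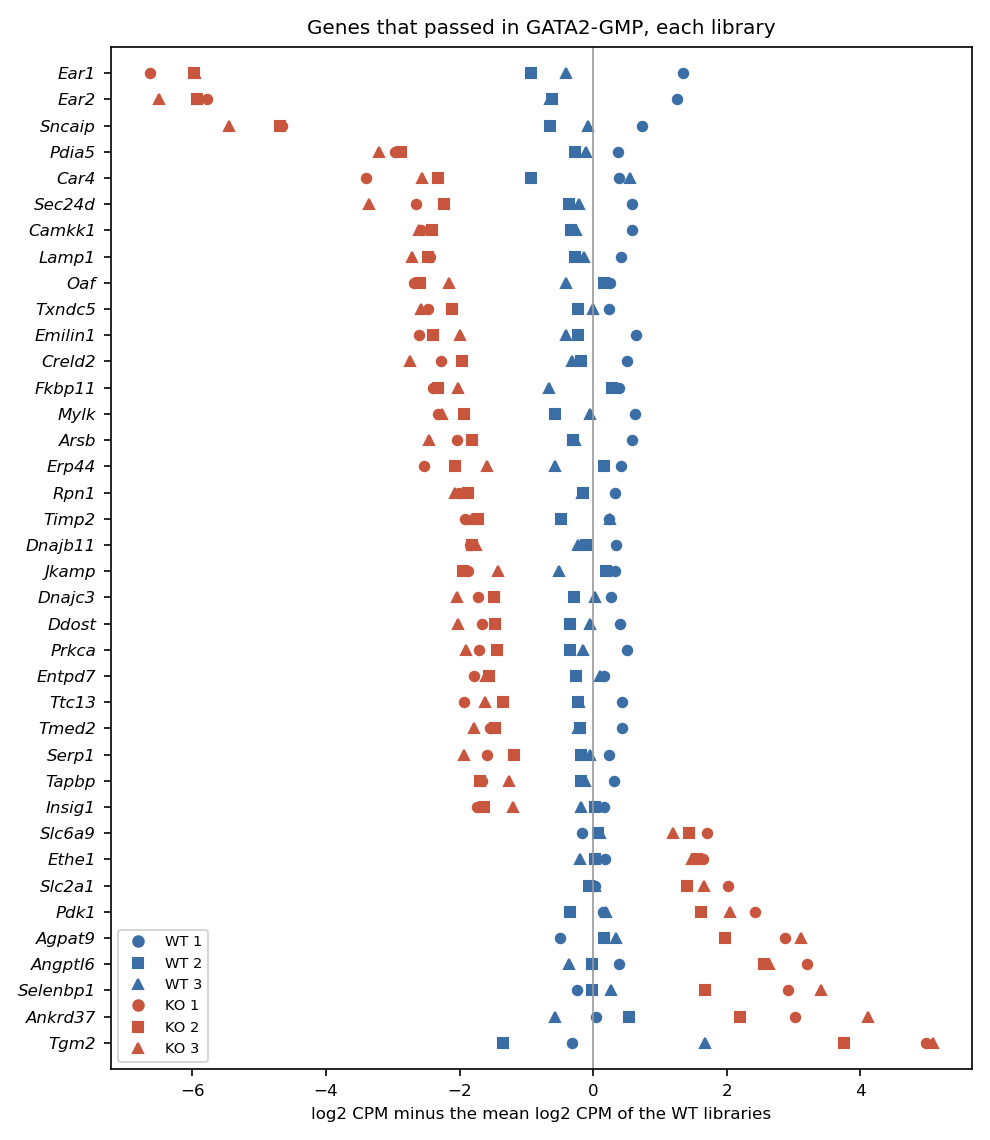
Each row is 1 of 38 of the 41 genes that passed (Sva, which had no WT count, is among those not drawn), and each point is a library's log2 CPM minus the mean log2 CPM of the 3 WT libraries (x axis), blue for WT and red for KO, with the replicate number as the marker. The KO points of the 29 drawn genes that fell lie left of all WT points, from Ear1 (log2 fold change -6.51) to Insig1 (-1.51), and those of the 9 that rose lie right of them.

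The steepest falls were in eosinophil ribonucleases. Ear1 and Ear2, members of the eosinophil-associated ribonuclease family stored in the granules, dropped to near 0. Ear1 stood at 284, 58.6 and 84.1 CPM in WT 1 to WT 3 and at 1.12, 1.78 and 1.799 CPM in KO 1 to KO 3. WT 1 was the highest, and the lowest WT library was far above all 3 KO libraries. The log2 fold change was -6.51 (SE 0.67, edgeR adjusted p = 0.00898), a 91.0-fold lower fitted level. Without WT 1 it was -5.51. Ear2 had 100, 27.5 and 26.9 CPM in WT and 0.764, 0.691 and 0.464 CPM in KO, with a log2 fold change of -6.30 (SE 0.64, edgeR adjusted p = 0.00898), or -5.39 without WT 1. The pair lies at chr14:44396430-44397304 (minus strand) and chr14:44680319-44681199 (plus strand) in mm9, and the coding sequences of 468 and 471 bases are 95.3% identical. Their counts are therefore uncertain: 40.3% to 55.0% of the records in the 6 libraries were set aside as aligned to more than 1 place, and how reads shared by the family were treated beyond that is not given in the sources used here.

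The more abundant granule genes were lower too, by less, and did not pass. Prg2 was at 137140, 93386 and 97929 CPM in WT and 38144, 46432 and 42451 CPM in KO, without overlap and with a log2 fold change of -1.37 (SE 0.35, edgeR adjusted p = 0.129). Epx, the peroxidase of the granule matrix, had 14034, 6486 and 25612 CPM in WT and 3063, 3779 and 1763 CPM in KO (log2 fold change -2.42, SE 0.52, edgeR adjusted p = 0.0975). For Prg3, the second major basic protein, 6129, 3715 and 3527 CPM in WT stood against 1685, 1998 and 1848 CPM in KO (-1.27, adjusted p = 0.124). WT 3 was the highest WT library for Epx and the lowest WT library for Prg3, so that the spread within WT was not shared by these genes. Counting over the granule list, 6 of its 9 members could be tested and 2 fell (33.3% against 0.265% of all genes). All 6 had every KO library below every WT library (100%, against 12.2% of all genes), and the median was -2.43 against -0.0050 for all genes. DESeq2 called all 6 lower (against 2.62% of all genes), as did edgeR without WT 3 (2.01%) and with the side term (5.9%). Ear4 and Ear12 had no count in any of the 6 libraries, and Ear10 was at 0 to 0.298 CPM. Summed over the list, granule transcripts made up 104382 to 159129 CPM in WT and 42980 to 52326 CPM in KO. In bulk libraries, fewer eosinophil-fated cells and less granule RNA per cell cannot be told apart.

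Other genes grouped here with the lineage moved unevenly. Car4, a carbonic anhydrase anchored at the cell surface, is on neither eosinophil list and is named as one of the 12 largest falls. It was placed in this group after its call was known. It was at 229, 91.5 and 258 CPM in WT and 16.5, 34.9 and 29.7 CPM in KO, and fell by 2.83 on the log2 scale (SE 0.43, edgeR adjusted p = 0.0405). Siglec5, the symbol here for the eosinophil surface lectin Siglec-F, had 113, 80.4 and 44.2 CPM in WT and 17.1, 19.9 and 26.2 CPM in KO, with a log2 fold change of -1.91 that missed the threshold (edgeR adjusted p = 0.0648). The eotaxin receptor Ccr3 had 41.6, 14.4 and 13.5 CPM in WT against 3.86, 3.899 and 5.51 CPM in KO (-2.39, adjusted p = 0.0744), and the IL-5 receptor chain Il5ra 40.2, 32.1 and 76.0 against 20.6, 28.5 and 24.2 CPM (-1.02, adjusted p = 0.214). In none of these 4 genes did the groups overlap. Over the 25 receptors and enzymes tested, every KO library was below every WT library in 6 (24%, against 12.2% of all genes). In 3 (12%, against 10.4%) every KO library was above, namely Ptgs2 (2.22), Pla2g4a (0.67) and Cysltr1 (2.64, at a KO mean of 0.83 CPM). By contrast Csf2rb, the signalling chain shared by the IL-5, IL-3 and GM-CSF receptors, had a log2 fold change of 0.32 and the lipoxygenase Alox15 0.27, both with overlapping groups. Of these 25 receptors and enzymes, edgeR called 0, and the median was -0.023. At an unadjusted p under 0.05, 3 were higher (12%, against 6.56% of all genes) and 5 lower (20%, against 8.32%). DESeq2 called 1 higher (4%, against 2.23%) and 3 lower (12%, against 2.62%). Of Ear1, Ear2 and Car4, all 3 passed without WT 2 or WT 3, Ear1 and Ear2 without WT 1 or KO 2, and none without KO 1 (edgeR adjusted p 0.0948 to 0.210) or KO 3 (0.0586 to 0.125).

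**Figure D3:**
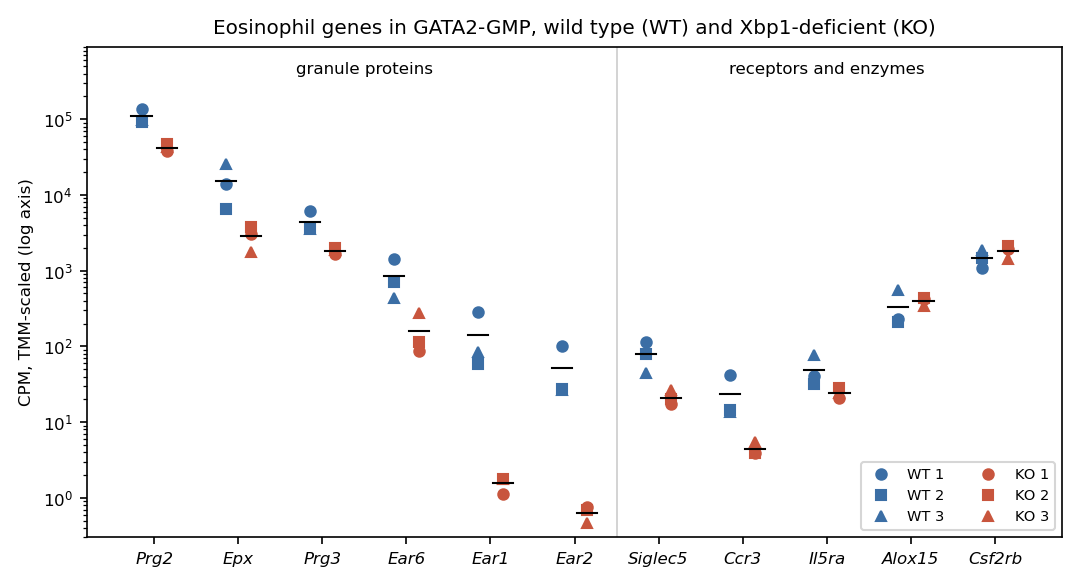
TMM-scaled CPM on a log axis for 11 eosinophil genes, granule proteins on the left and receptors and enzymes on the right, 1 point per library (blue WT, red KO, marker by replicate number) with a bar at the mean of each group of 3. KO points lie below all WT points for the 6 granule genes and for Siglec5, Ccr3 and Il5ra, with the widest gap at Ear1 and Ear2, and overlap WT for Alox15 and Csf2rb.

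Transcription factors that set this lineage showed no change that passed. Gata2, which the counts cannot divide into transgene and native gene, had 217, 285 and 171 CPM in WT and 210, 181 and 226 CPM in KO, with a log2 fold change of -0.12 (edgeR adjusted p = 0.859). Its groups overlapped fully. Gata1, needed for eosinophil development, had 112, 93.0 and 161 CPM against 85.7, 108 and 78.5 CPM (-0.43, adjusted p = 0.476), and Cebpe, a factor of late granulocyte genes, had -0.68 with an adjusted p of 0.469. Of 26 lineage factors tested edgeR called 0. At an unadjusted p under 0.05, 3 were higher (11.5%, against 6.56% of all genes) and 4 lower (15.4%, against 8.32%). DESeq2 called 2 higher (7.69%, against 2.23%) and 1 lower (3.85%, against 2.62%).

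Of the genes that fell, 12 were ER and secretory genes. Over 7 lists of such genes holding 168 tested members, 12 fell (7.14%, against 0.265% of all genes), 0 rose and the others did not pass. In 58 (34.5%, against 12.2%) every KO library was below every WT library. In 5 of the 168 every KO library was above, against 10.4% of all genes. The 12 made 38.7% of the 31 falls. By list, 8 of 43 reported XBP1 targets fell (median -0.64), 4 of 22 ER chaperones (-0.74), 3 of 19 disulfide isomerases and oxidases (-0.54), 1 of 25 genes of translocation and signal peptide cleavage (-0.47), 2 of 31 N-glycosylation genes (-0.52) and 2 of 44 genes of the vesicles between ER and Golgi (-0.33). The lists share members, 8 between the XBP1 targets and the chaperones alone. Of 26 genes of ER-associated degradation edgeR called 0. At an unadjusted p under 0.05, 1 was higher (3.85%, against 6.56% of all genes) and 7 lower (26.9%, against 8.32%). DESeq2 called 1 higher (3.85%, against 2.23%) and 5 lower (19.2%, against 2.62%).

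Several of these genes carry, near the start, one of the sequence elements through which XBP1 and ATF6 are known to act. The elements are printed, in capitals with up to 40 lower-case bases on each side, for fallen genes of the secretory group and for Hspa5, the classic target of the response, so that their letters can be compared. They come from RefSeq promoters on GRCm38.p6 (250 bases before to 50 after the start) and are written 5′ to 3′ on the strand of the gene. The ERSE was searched as CCAAT, 9 bases, CCACG, the ERSE-II as ATTGG, 1 base, CCACG, and the UPRE core as TGACGTG, each on both strands. A shorter ACGT core, CCACGT, which can overlap the others, was searched the same way and is not printed.
Creld2 ERSE, on the opposite strand, chr15:88819480-88819578: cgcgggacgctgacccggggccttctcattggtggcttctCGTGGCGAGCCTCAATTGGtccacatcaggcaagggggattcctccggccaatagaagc
Dnajc3 ERSE, chr14:118937787-118937885: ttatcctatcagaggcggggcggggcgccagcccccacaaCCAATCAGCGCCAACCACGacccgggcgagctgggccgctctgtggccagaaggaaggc
Hspa5 ERSE, chr2:34771985-34772083: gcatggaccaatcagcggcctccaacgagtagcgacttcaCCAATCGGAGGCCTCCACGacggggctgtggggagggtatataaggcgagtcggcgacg
Dnajb11 ERSE-II, chr16:22857812-22857874: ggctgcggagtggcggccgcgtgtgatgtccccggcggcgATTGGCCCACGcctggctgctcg
Sec24d UPRE core, chr3:123267430-123267516: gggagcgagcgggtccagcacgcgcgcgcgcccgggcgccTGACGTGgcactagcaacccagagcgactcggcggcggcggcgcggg
Txndc5 UPRE core, gene on the minus strand, chr13:38528006-38528092: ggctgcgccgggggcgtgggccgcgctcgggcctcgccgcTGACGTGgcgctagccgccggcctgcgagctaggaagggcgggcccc
Fkbp11 UPRE core, on the opposite strand, gene on the minus strand, chr15:98727598-98727667: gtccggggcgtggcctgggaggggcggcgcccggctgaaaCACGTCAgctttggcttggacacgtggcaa

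The element began 126 bases before the start in Creld2, 105 in Dnajc3, 65 in Hspa5, 26 in Sec24d and 138 in Txndc5, and 7 bases after it in Dnajb11. A promoter was given for 27 of the 31 fallen genes and 8 of the 10 risen. An ERSE was in 2 of the 27 (7.41%), against 0.119% of all 32851 promoters and 0.171% of those of 8753 tested genes. An ERSE-II was in 1 (3.70%, against 0.0365% and 0.0914%), a UPRE core in 3 (11.1%, against 2.01% and 3.34%) and the ACGT core in 10 (37.0%, against 8.31% and 13.7%). Each was in 0 of the 8 risen genes. Such a match is a description of letters and no measure of binding. Hspa5, which has both an ERSE and a UPRE core, was not among the falls.

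Chaperones and their partners differed by member. Creld2, an ER calcium-binding protein with disulfide exchange activity, had 83.7, 52.3 and 47.2 CPM in WT and 12.2, 15.2 and 8.82 CPM in KO, and fell by 2.34 on the log2 scale (SE 0.31, edgeR adjusted p = 0.0271). The 2 J-domain partners of the chaperone BiP that fell, Dnajb11 and Dnajc3, changed by -1.82 and -1.75, and the prolyl isomerase Fkbp11 by -2.31 (50.3, 46.5 and 24.2 CPM against 7.28, 7.65 and 9.46 CPM, adjusted p = 0.0271). WT 3 was the lowest WT library for Fkbp11 and still stood above every KO library. Hspa5, which encodes BiP, went the other way: 1583, 1908 and 2024 CPM in WT and 3599, 3639 and 2906 CPM in KO, without overlap and with a log2 fold change of 0.88 that missed the threshold (SE 0.26, edgeR adjusted p = 0.177). Hsp90b1, the ER HSP90, had -0.06 with an adjusted p of 0.941, its sign turning under library size scaling (0.13). Dnajb9, an XBP1 target that restrains IRE1, had 36.0, 21.0 and 22.1 CPM against 8.94, 10.6 and 9.75 CPM (-1.43, adjusted p = 0.0728).

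The falls also included a few of the genes that form disulfides, add glycans or carry cargo. Pdia5, a protein disulfide isomerase, had 13.2, 8.42 and 9.44 CPM in WT and 1.30, 1.38 and 1.10 CPM in KO, and fell by 3.02 on the log2 scale (SE 0.33, edgeR adjusted p = 0.00948). Txndc5 of the same family had 64.5, 46.7 and 54.3 CPM against 9.88, 12.6 and 9.11 CPM (-2.39, SE 0.25, adjusted p = 0.00898). Erp44, which retrieves unassembled proteins to the ER, changed by -2.07. Of the oligosaccharyltransferase, the complex that transfers glycans to new proteins, Rpn1 had 300, 215 and 211 CPM in WT and 59.5, 64.8 and 56.7 CPM in KO (-2.004, SE 0.23, adjusted p = 0.0115) and Ddost changed by -1.73 (adjusted p = 0.0405). The catalytic subunit Stt3a had -0.06 (adjusted p = 0.957), with 304, 409 and 749 CPM against 486, 545 and 374 CPM, and its direction turned in 5 alternatives. Its groups overlapped and WT 3 was the highest of the 6 libraries.

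Sec24d, a cargo-binding subunit of the COPII coat, had 60.2, 31.6 and 34.8 CPM in WT and 6.42, 8.64 and 3.95 CPM in KO, and fell by 2.73 on the log2 scale (SE 0.37, edgeR adjusted p = 0.0271). Tmed2, a p24 cargo receptor, changed by -1.62 and Serp1, which binds the translocon, by -1.55. The channel subunit Sec61a1 had 412, 376 and 860 CPM against 408, 480 and 304 CPM (-0.47, adjusted p = 0.587) and Sel1l, the adaptor of the Hrd1 ligase in ER-associated degradation, 158, 97.3 and 141 against 158, 163 and 113 CPM (0.13, adjusted p = 0.856). In both the groups overlapped. Within the short side the 12 falls and Tapbp and Jkamp, a pair from outside the 7 lists, had a median difference of -2.03 and within the long side -1.65. The direction on each side was again fixed in advance by the lack of overlap. All 14 also passed without WT 3 and with the side term. Without WT 1, 2 of the 14 passed, without WT 2 8 and without KO 2 5, and without KO 1 or KO 3 edgeR called 0 (adjusted p 0.122 to 0.309 and 0.0586 to 0.129).

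Of the reported substrates of IRE1-dependent decay, Erp44, Rpn1 and Tapbp fell, 3 of 11 tested (27.3%, against 0.265% of all genes), and 8 (72.7%, against 12.2% of all genes) had every KO library below every WT library, with a median of -1.03. Tapbp, which helps load peptides on MHC class I, had 115, 81.3 and 84.9 CPM in WT and 29.2, 28.5 and 38.8 CPM in KO (-1.54, SE 0.24, edgeR adjusted p = 0.0424). Bloc1s1, the most widely used marker of this decay, had 71.7, 49.3 and 26.6 CPM against 12.04, 13.6 and 19.8 CPM, without overlap, and missed the threshold (-1.70, adjusted p = 0.0975). Rpn1 stands on the XBP1 target list too, and mRNA decay and less transcription cannot be told apart in these counts. Ern1, which encodes IRE1, had 2.14, 2.71 and 6.67 CPM in WT and 8.76, 8.54 and 6.56 CPM in KO (1.04, adjusted p = 0.305), with WT 3 between the KO libraries.

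ATF4 and CHOP targets had higher values in the KO cells in 28 of 31 genes, but edgeR called 0. At an unadjusted p under 0.05, 21 were higher (67.7%, against 6.56% of all genes) and 0 lower, DESeq2 called 13 higher (41.9%, against 2.23%), and in 19 (61.3%, against 10.4%) every KO library was above every WT library. The list's median was 1.01. RLE and upper-quartile scaling each called 1 member, Shmt2, a serine enzyme named here after its values were seen. EdgeR called 10 higher without WT 3 (32.3%, against 2.37% of all genes) and 12 with the side term (38.7%, against 4.36%). Trib3, a pseudokinase induced by CHOP, had 4.83, 26.8 and 12.7 CPM in WT and 96.1, 70.0 and 95.3 CPM in KO (2.56, SE 0.52, edgeR adjusted p = 0.0802). Ddit3, which encodes CHOP, had 40.9, 120 and 62.7 CPM against 210, 194 and 275 CPM (1.60, adjusted p = 0.121), and asparagine synthetase Asns 164, 405 and 284 against 704, 728 and 950 CPM (1.48, adjusted p = 0.118). WT 2 was the highest WT library for all 3 genes, and the groups did not overlap in any. Atf4 mRNA had a log2 fold change of 0.16 (adjusted p = 0.823) and overlapping groups. For aminoacyl-tRNA synthetases, which charge tRNAs and include ATF4 targets, edgeR called 0 of 20, and the median was 0.60. Unadjusted, 8 were higher (40%, against 6.56% of all genes) and 0 lower, and DESeq2 called 4 higher (20%, against 2.23%).

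Glucose uptake and hypoxia genes held 3 of the 10 rises, out of 26 tested (11.5%, against 0.0855% of all genes). Slc2a1, the glucose transporter GLUT1, had 35.3, 33.1 and 35.2 CPM in WT and 139, 91.6 and 109 CPM in KO, a rise of 1.71 on the log2 scale (SE 0.23, edgeR adjusted p = 0.0265). The 3 WT libraries were close together, and the lowest KO library stood far above them. Pdk1, a kinase that inhibits pyruvate dehydrogenase, had 8.996, 6.44 and 9.35 CPM against 43.5, 24.9 and 33.6 CPM (2.04, SE 0.29, edgeR adjusted p = 0.0289). Ankrd37, a small hypoxia-induced gene, had 3.16, 4.45 and 2.06 against 25.0, 14.1 and 53.2 CPM (3.25, SE 0.51, edgeR adjusted p = 0.0433). Without KO 3, its highest library, the value for Ankrd37 was 2.60. Of the 26, 15 were higher at an unadjusted p under 0.05 (57.7%, against 6.56% of all genes) and 0 lower, DESeq2 called 13 higher (against 2.23% of all genes), and 18 (69.2%, against 10.4%) had every KO library above every WT library. The median of 0.84 held between 0.67 and 1.09 over 18 alternatives. Of the glycolytic enzymes, Pgk1 had 0.74 (adjusted p = 0.155) and Ldha 0.46 (adjusted p = 0.449).

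The other rises were of mixed function. Tgm2, a transglutaminase that crosslinks proteins, had 0.596, 0.290 and 2.37 CPM in WT and 23.4, 10.1 and 25.2 CPM in KO, with a log2 fold change of 4.13 (SE 0.69, edgeR adjusted p = 0.04997), or 5.47 without WT 3, the highest WT library. Selenbp1, a selenium-binding protein, had 8.64, 10.1 and 12.3 CPM against 77.0, 32.7 and 109 CPM (2.82, SE 0.41, adjusted p = 0.0389). Ethe1, a mitochondrial enzyme of sulfide oxidation, had 21.6, 19.4 and 16.6 CPM against 59.8, 56.2 and 52.9 CPM (1.55, SE 0.21, adjusted p = 0.0271). Agpat9, a glycerol-3-phosphate acyltransferase, changed by 2.67, Angptl6, a secreted angiopoietin-like protein, by 2.79, and the glycine transporter Slc6a9 by 1.45. Sva, seminal vesicle antigen, had no count in any WT library and 42, 47 and 43 counts in KO, at least 44.5-fold higher against a floor of 3 counts over the WT group. In GMP without transduction Sva likewise had no count in WT 1 to WT 3, and 49, 71 and 17 counts in KO 1 to KO 3. Of the 10 rises, all passed without WT 3, 6 without KO 2, 1 without WT 2, and 0 without WT 1, KO 1 or KO 3 (edgeR adjusted p 0.0919 to 0.251, 0.193 to 0.301 and 0.0710 to 0.129).

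Outside the secretory lists the falls included lysosomal, lipid and signalling genes. Lamp1, a major glycoprotein of the lysosomal membrane, had 341, 211 and 233 CPM in WT and 47.3, 46.0 and 39.1 CPM in KO, and fell by 2.57 on the log2 scale (SE 0.26, edgeR adjusted p = 0.00898). It was the only call among 33 lysosomal genes of the list (3.03%, against 0.265% of all genes falling), whose median was -0.086. DESeq2 called 5 lower (15.2%, against 2.62%) and edgeR without WT 3 called 4 (12.1%, against 2.01%). The protease Ctsd had 0.32 (edgeR adjusted p = 0.639). Arsb, a lysosomal sulfatase outside that list, had 1130, 614 and 622 CPM against 184, 214 and 137 CPM (-2.14, SE 0.32, adjusted p = 0.0404). Insig1, which retains the sterol sensor SCAP in the ER, had 120, 109 and 95.2 CPM against 32.1, 34.8 and 47.01 CPM (-1.51, SE 0.23, adjusted p = 0.0404). Of 23 cholesterol genes tested 2 fell (8.7%, against 0.265% of all genes), Insig1 among them. All 23 had a log2 fold change below 0 (median -0.46), against 5902 of all 11702 genes. With library size scaling 20 of 23 did, against 4062 of all genes. Hmgcs1, the synthase of the pathway's early steps, had no count in any of the 6 libraries. The annotation behind the counts is not given, so whether its mRNA was absent is not known from these values.

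Sncaip, which encodes a synuclein-interacting protein, had 16.9, 6.48 and 9.66 CPM in WT and 0.404, 0.395 and 0.232 CPM in KO, and fell by 4.95 on the log2 scale (SE 0.49, edgeR adjusted p = 0.00898). Camkk1, a kinase activated by calcium and calmodulin, had 18.5, 9.82 and 10.3 CPM against 2.07, 2.32 and 2.03 CPM (-2.58, SE 0.34, adjusted p = 0.0265). Oaf, Emilin1 and Timp2, all secreted proteins, changed by -2.49, -2.38 and -1.85, and the kinases Mylk and Prkca by -2.24 and -1.72. Of the 14 falls outside the eosinophil and secretory groups, 14 passed without WT 3, 9 without WT 2, 3 without KO 2, 2 without WT 1, and 0 without KO 1 or KO 3.

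**Figure D4:**
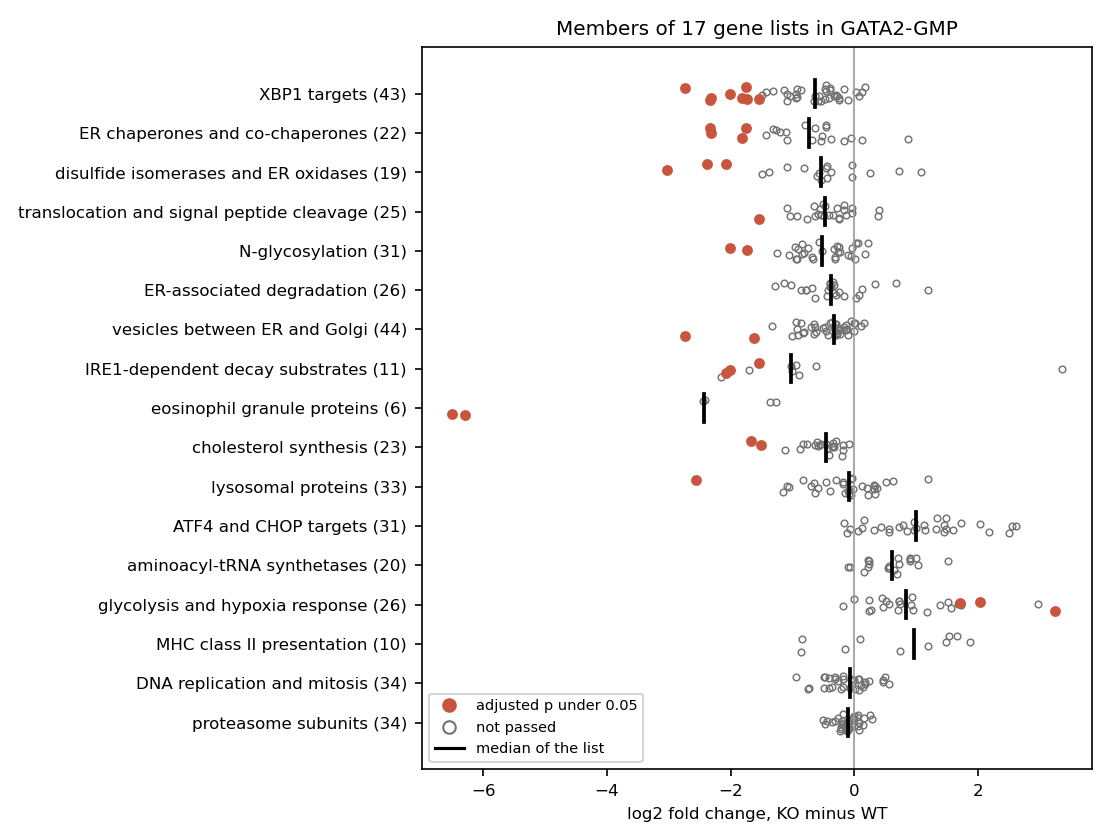
Log2 fold change, KO minus WT (x axis), of every tested member of 17 gene lists in GATA2-GMP (number tested in brackets), with filled points for genes that passed, open points for those that did not and a black bar at the list's median. The medians of the secretory lists lie between -0.33 and -0.74 and that of the granule proteins at -2.43, against 1.01 for ATF4 and CHOP targets and 0.84 for glycolysis and hypoxia genes.

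Markers of other cells a GMP culture could hold overlapped between the genotypes as sums. Summed CPM of the mast cell and basophil list was 8478 to 19985 in WT and 10887 to 18971 in KO, of later neutrophil granule genes 32434 to 57147 and 30190 to 49372, and of erythroid and megakaryocyte genes 98.9 to 182 and 112 to 170. The monocyte and dendritic cell list summed to 3219 to 6626 CPM in WT and 2458 to 4643 CPM in KO. All these ranges overlapped. As single members, the globin Hbb-b1 had no count, the T cell marker Cd3e was at 0 to 0.116 CPM, and the monocyte factor Irf8 at 0 to 0.290 CPM. Most members of their lists did have counts: 17 of 19 erythroid and megakaryocyte, 14 of 17 lymphoid and 24 of 24 monocyte and dendritic cell genes. Lymphoid genes summed to 35.4 to 57.2 CPM in WT and 36.4 to 70.1 CPM in KO. The low single members therefore do not show that such cells were absent. Over these lists edgeR called 0 in each. At an unadjusted p under 0.05, 6.56% of all genes were higher and 8.32% lower, and DESeq2 called 2.23% and 2.62%. Mast cell and basophil genes had 3 higher (15%) and 2 lower (10%) of 20 tested unadjusted (DESeq2 1, 5%, and 0). Later neutrophil granule genes had 3 (14.3%) and 0 of 21 (DESeq2 0 and 0). Erythroid and megakaryocyte genes had 0 and 1 (10%) of 10 (DESeq2 0 and 1, 10%). Monocyte and dendritic cell genes had 3 (21.4%) and 1 (7.14%) of 14 (DESeq2 2, 14.3%, and 0). Of 12 primary neutrophil granule genes tested, 1 was higher (8.33%) and 3 lower (25%) at an unadjusted p under 0.05 (DESeq2 0 and 2, 16.7%). Elane had 519, 539 and 160 CPM against 131, 106 and 172 CPM (-1.57, edgeR adjusted p = 0.153). Kit, the receptor of progenitors and mast cells, had 24.1, 22.02 and 77.0 CPM in WT and 154, 151 and 87.5 CPM in KO (1.67, adjusted p = 0.162). The part that cell makeup has in the changes above was not tested.

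Antigen presentation and interferon genes had medians of 0.97 and 0.90, with no call by edgeR, and the medians moved with single libraries. That of the MHC class II list was 0.59 without KO 3, and that of the interferon list 0.44 without WT 1 and 0.268 over the 11 genes with a mean of at least 5 CPM. Of 10 MHC class II genes tested edgeR called 0. At an unadjusted p under 0.05, 5 were higher (50%) and 2 lower (20%), and DESeq2 called 4 higher (40%). Over all genes the shares were 6.56% higher and 8.32% lower unadjusted, and 2.23% and 2.62% in DESeq2. H2-Aa, an alpha chain, had 5.004, 6.92 and 5.64 CPM in WT and 16.1, 12.8 and 21.99 CPM in KO (1.53, SE 0.29, adjusted p = 0.0689), and the invariant chain Cd74 had 14.4, 41.5 and 45.5 against 100, 99.3 and 122 CPM (1.66, adjusted p = 0.121). Of 22 interferon genes edgeR called 0, with 6 higher unadjusted (27.3%) and 2 in DESeq2 (9.09%). The interferon median within the short side was 1.77 against 0.198 within the long side. For 34 genes of DNA replication and mitosis edgeR also called 0, with 1 higher (2.94%) and 3 lower (8.82%) unadjusted and 2 lower in DESeq2 (5.88%). Their median was -0.061, and Mki67, which marks cycling cells, had -0.40 (adjusted p = 0.568). Survival genes had no call by edgeR. Of 15 BCL2 family members tested 4 were higher (26.7%) and 2 lower (13.3%) unadjusted, and 2 (13.3%) and 1 (6.67%) in DESeq2. Bcl2l1, which encodes BCL-XL, was at 26.9, 41.7 and 35.4 CPM against 68.3, 57.5 and 69.2 CPM (0.91, edgeR adjusted p = 0.129). The Y-linked Ddx3y was at 113 to 150 CPM and Xist at 0.0596 to 0.537 CPM over the 6 libraries.

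Whether the effect of genotype differed from that in GMP without transduction was tested as an interaction over all 12 libraries. It passed in 18 of 12788 genes (0.141%), 7 with a larger value in GATA2-GMP (0.0547%) and 11 with a smaller one (0.086%). The labels give the SMARTer step for GATA2-GMP and not for GMP, so culture, GATA2 and library method cannot be told apart as sources of such a difference. Ear1, with a log2 fold change of 0.20 in GMP, differed by -6.74 (SE 0.92, edgeR adjusted p = 0.0280). Ear2 passed this test too, but had too few counts to be tested within GMP, so that its value restates the fall in GATA2-GMP. Sncaip differed by -5.51 (adjusted p = 0.00739) and Camkk1 by -2.98 (adjusted p = 0.0310). Among the rises, Pdk1 differed by 2.10, Slc2a1 by 1.47, Ethe1 by 1.37 and Selenbp1 by 2.67 (edgeR adjusted p 0.0280 to 0.0496), each with a value in GMP between -0.070 and 0.22. None of the 14 fallen secretory genes was among the 18 (edgeR adjusted p 0.0614 to 0.764), and in 13 of the 14 the fold change was further below 0 in GATA2-GMP than in GMP. The 14 were chosen for their fall in GATA2-GMP, which favours a larger fall there, so that count is no test of a stronger effect. The difference was -1.70 for Pdia5 (adjusted p = 0.0614), -1.11 for Dnajb11 (0.0623), -1.14 for Tmed2 (0.0772) and -1.52 for Creld2 (0.0870). For Sec24d, the exception, the values were -3.195 in GMP and -2.73 in GATA2-GMP. For Rpn1 the values were -1.37 in GMP and -2.004 in GATA2-GMP (difference -0.65, SE 0.23, adjusted p = 0.198), and for Xbp1 -1.06 and -1.28 (difference -0.23, SE 0.34, adjusted p = 0.815). Hspa5, at -0.63 in GMP and 0.88 in GATA2-GMP, differed by 1.497 and missed the threshold (adjusted p = 0.0614). The count was 1179 without WT 3 and 127 without WT 2 of GATA2-GMP, 10 without its WT 1, 0 without its KO 1 (1685 at an unadjusted p under 0.05), and 1 or 2 without any single GMP library. DESeq2 called 819 (6.4%), 239 larger (1.87%) and 580 smaller (4.54%).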

How the data were processed

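PolyA RNA-seq libraries from 3 WT and 3 KO samples of GATA2-GMP were compared, with 6 GMP libraries used for the test between stages. The authors deposited raw counts per gene symbol, 1 table per library. Per the submitters' processing notes, the build was mm9, and STAR 2.3.0, SAMtools 0.1.14, HTSeq and DESeq are named; their roles, the annotation and the strand setting are not given in the sources used here, so overlapping and antisense genes may share reads. The 5 counter rows were dropped; they held 55.8% to 66.5% of the records in GATA2-GMP.

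The test was a robust quasi-likelihood fit on genotype (edgeR 4.0.16 under R 4.3.3, with filterByExpr, TMM and Benjamini-Hochberg adjustment at 0.05) within the stage and without a replicate block, and with the interaction of genotype and stage over 12 libraries. In the GMP files, 27 gene names had turned into dates and were left out of the interaction. The 18 alternatives included DESeq2 1.42.0, other scalings and filters, a length offset (merged GENCODE vM1 exons, for 98.2% of the genes), a replicate block and leaving out each library. The main fit, DESeq2 and the length offset were also run on simulated counts. Those counts were drawn without the lean with transcript length, so they do not bear on it. A single count is 0.0443 to 0.0561 CPM before TMM scaling, which sets the precision of low genes.

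Named are Xbp1, the 12 largest rises and falls without overlap and with a higher group mean of at least 10 CPM, up to 4 called members a direction from each of 36 lists, their anchor genes, and up to 6 genes a direction for the test between stages. A few called genes outside that rule were named after their values were seen. A few genes that the rule names are not reported here. Members, lists and rules were chosen with earlier results of these data known.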

Additional observations from a re-analysis of the deposited data

Results flagged for a closer look

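The effect of Xbp1 loss in GATA2-GMP differed from that in GMP without transduction in 18 of 12788 genes (0.141%), by the test of the difference itself in edgeR. Among the genes described above, the difference on the log2 scale was -6.744 for the granule ribonuclease Ear1, -5.512 for Sncaip and -2.978 for Camkk1. It was 2.095 for Pdk1 and 1.467 for Slc2a1, which act in glucose use, 1.367 for Ethe1 and 2.671 for Selenbp1. For Ear2 the fit gave -6.581, but Ear2 had too few counts to be tested within GMP, so that this value restates its fall in GATA2-GMP and is no measured difference of 2 genotype effects. Ear1, Ear2, Sncaip and Camkk1 were lower in all 3 KO libraries of GATA2-GMP than in all 3 WT libraries, and the other 4 genes were higher. All 8 fell short of the threshold with the replicate block and without KO 1 of GATA2-GMP, and 2 of the 8 without its WT 1 and 2 without its KO 3. Leaving out any single one of the 6 GMP libraries, 7 of the 8 fell short, all but Sncaip. The labels give culture, GATA2 and the SMARTer step for GATA2-GMP and not for GMP, so that these cannot be told apart.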

How the results depend on the processing

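The 41 calls kept their direction in every one of the 18 alternatives in which they could be fitted (38 of them under a minimum mean of 5 CPM), but the number of calls did not hold. Given as total, higher and lower, it was 293, 123 and 170 without a filter on low counts, 568, 261 and 307 with DESeq2, 1462, 596 and 866 when all 12 libraries shared 1 estimate of the spread, and 127, 38 and 89 with a length offset. Scaling by library size alone gave 17 higher and 20 lower. The 2 alternatives chosen after seeing the data gave 1200, 510 and 690 (a term for the side of the length split) and 2938, 1456 and 1482 (without WT 3 and KO 3 together). Leaving out 1 library gave 0 to 526 in all, 0 to 285 higher and 0 to 241 lower. Same-numbered WT and KO libraries did not deviate together (correlations of -0.16, -0.314 and -0.486), so these values show no pairing by number. They cannot exclude it, as each same-numbered pair lies on opposite sides of the length split and only libraries on the same side had positive correlations. Whether same-numbered libraries shared animals or a preparation is not in the labels. With the replicate block edgeR called 3, 0 higher and 3 lower, with 970 genes at an unadjusted p under 0.05, and with the replicate block and the length offset together 1, 0 higher and 1 lower.

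The test between stages gave 40, 15 and 25 without a filter, 819, 239 and 580 with DESeq2, 10, 4 and 6 with upper-quartile scaling, 4 higher with RLE scaling, 7 lower with library size scaling, and 0, 0 and 0 with the replicate block (1338 unadjusted, edgeR). Leaving out 1 library gave 0 to 1179 in all, 0 to 565 higher and 0 to 614 lower. The causes of these shifts were not tested.

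Direction turned only in genes that had not passed. On the log2 scale, library size scaling gave Hsp90b1 0.13, Stt3a 0.12, Atf6 0.13, Gata2 0.060, Cebpa 0.15, Pim1 0.059, Cd34 0.0062 and Mcm5 0.12. The length offset gave Syvn1 -0.039 and Csf1r -0.017, and the replicate block Stt3a 0.041. With the side term the values were Gata2 0.021, Sfpi1 0.11, Prtn3 0.017, Prss34 -0.057, Cd34 0.00096, Fos -0.12 and Egr1 -0.0079. Without WT 3 and KO 3 they were Sec61a1 0.18, Hsp90b1 0.11, Srprb 0.18, Stt3a 0.55, Syvn1 -0.026, Atf6 0.49, Atf4 -0.14, Cebpa 0.12, Pim1 0.17, Lcn2 -0.14, S100a8 -0.36, Csf1r -0.30, Cpa3 -0.097, Pf4 -0.22 and Mcm5 0.67. Leaving out 1 library at a time gave ranges across 0 for Sec61a1 -0.68 to 0.011, Hsp90b1 -0.14 to 0.024, Srprb -0.47 to 0.035, Stt3a -0.31 to 0.40, Sel1l -0.053 to 0.28, Syvn1 -0.23 to 0.36, Atf6 -0.26 to 0.21, Atf4 -0.0068 to 0.26, Gata2 -0.29 to 0.080, Cebpa -0.30 to 0.28, Sfpi1 -0.76 to 0.046, Pim1 -0.24 to 0.054, Ctsg -0.65 to 0.12, S100a8 -0.11 to 0.62, Csf1r -0.14 to 0.42, Mcpt8 -0.98 to 0.42, Ms4a2 -0.47 to 0.086, Prss34 -0.31 to 0.42, Cd34 -0.43 to 0.0050, Mcm5 -0.38 to 0.43, Bcl2l11 -0.060 to 0.46, Fos -0.15 to 0.42 and Egr1 -0.27 to 0.41.

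With 3 libraries a group, genes near the threshold cannot be separated from the spread. Before TMM scaling, 1 CPM stands for 17.8 to 22.6 counts in these libraries.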

Other observations

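Of the 31 falls in GATA2-GMP, 14 lie outside the eosinophil and secretory groups, and a few more have values not given above. Entpd7, a nucleotidase of inner membranes, was at 88.4, 65.9 and 85.0 CPM in WT and 23.0, 26.7 and 26.1 CPM in KO (log2 fold change -1.66, SE 0.22, edgeR adjusted p = 0.0265). Ttc13, a gene of unsettled function, was at 56.2, 35.8 and 36.2 CPM against 10.9, 16.4 and 13.5 CPM (-1.65, SE 0.27, adjusted p = 0.04997).

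Cytosolic ribosomal protein genes had a median of 0.22 over 50 tested, with a call by edgeR in 0 and by DESeq2 in 0. At an unadjusted p under 0.05, 1 was higher (2%, against 6.56% of all genes). With the side term 21 were higher (42%, against 4.36% of all genes) and 0 lower, and over the 18 alternatives their median ran from -0.31 to 0.49. Of 48 respiratory chain subunits edgeR called 0. Unadjusted, 2 were higher (4.17%, against 6.56% of all genes) and 1 lower (2.08%, against 8.32%), and DESeq2 called 1 lower (2.08%, against 2.62%). Of 34 proteasome subunits 0 passed in edgeR, unadjusted or not, and 0 in DESeq2. WT 3 correlated more closely with KO 1 and KO 2 over genes (Spearman 0.953 and 0.957) than with WT 1 and WT 2 (0.940 and 0.949); genes are not independent replicates, and the cause was not tested.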
